A study of Homo sapiens with 9 samples.

Results

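The genes described here encode enzymes that write or erase marks on histones and DNA, with a few of their core partners, 44 genes in all: 11 histone deacetylases of the zinc-dependent classes, 7 sirtuins, 9 acetyltransferases, 4 genes of Polycomb repressive complex 2, 4 genes of DNA methylation, 3 TET genes, 3 H3K9 methyltransferase genes, KMT2A and KDM1A, which write and erase H3K4 methylation, and the transcription factor YY1. They were chosen by name, and their probes were found through the RefSeq transcripts that the array files give. A probe was matched for 41 of the 44 genes, by 69 probes in all, while KAT6A, EED and TET3 were not analysed here. Of the 69 probes, 67 passed the filter on dim probes, and all 41 genes were among the 21832 genes tested on the arrays. The probe that stood for each of the 41 genes was well above background on all 9 arrays.

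Gene expression was measured in A2780, an established human cell line derived from ovarian carcinoma, with 3 untreated cultures, 3 cultures given 8 nM DIG-MSK and 3 given 80 nM DIG-MSK for 24 h, all grown in the same medium. DIG-MSK is a mithramycin analogue, a DNA-binding compound that prefers C/G-rich sequences. RNA from each culture, described in the study as an independent biological replicate, was labeled with Cy3 and hybridized to an Agilent array of its own. The 9 arrays come from a single cell line and a single time, and untreated cells are the only control. Per the file headers, the untreated and 8 nM arrays lay on slide 1 and the 80 nM arrays on slide 2, which was scanned separately, so that for 80 nM the compound and the slide cannot be told apart. In bulk RNA, fewer cells of a kind and less RNA per cell cannot be told apart either. Of the epithelial and ovarian carcinoma markers, EPCAM, KRT8, KRT18 and KRT19 were well above background on all 9 arrays by at least 1 probe, PAX8 on 3 of the 9, and CDH1, WT1 and MUC16 on none. Of the blood and endothelial markers, HBB and PECAM1 were above background on no array, CD3E and VWF on 3 of the 9, and CD14, CD68, CDH5 and 1 of 4 probes of PTPRC on all 9, with untreated levels between -4.17 and -3.19. CD68, which tumour cells can also express, was 1.25 higher at 80 nM than in untreated cells on the log2 scale (adjusted p = 6.2e-06, limma), while CD14, CDH5 and PTPRC had changes of 0.20, 0.23 and -0.20 (adjusted p = 0.38, 0.091 and 0.52). EPCAM had changes of 0.90 and -0.93 at 8 and 80 nM (adjusted p = 0.029 and 0.0065). The part of these changes in the results was not tested.

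Acetyl groups on histone tails are placed by acetyltransferases and removed by deacetylases and sirtuins, and acetylation generally accompanies active transcription. Methyl groups on histones can accompany active genes, as at H3K4, or silent ones, as at H3K9 and H3K27, where Polycomb repressive complex 2 places them. DNA methylation is set by DNMT3A and DNMT3B, copied at replication by DNMT1 with UHRF1, and oxidized by the TET enzymes on the way to its removal.

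In what follows a level is the log2 of the processed intensity of a probe minus the 75th percentile of its array, a change is the difference of the mean levels of 2 groups on that log2 scale, and SE is its standard error. Levels of different genes come from different probes and are not compared. Calls follow the rule of the study: up-regulated genes reached a ratio of 1.5-fold and down-regulated genes a ratio of 0.67-fold or lower, both with an unadjusted p under 0.05. Adjusted p-values (Benjamini-Hochberg, limma) count all genes tested.

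Because the compound prefers C/G-rich DNA, the promoters of the genes were searched for the GC box GGGCGG, the core of the site bound by Sp1, on both strands. The windows, from RefSeq on GRCh38.p14, run from 250 bases before to 50 after a transcription start. Promoters are shown of 4 genes with a single listed start that were called at 80 nM: HDAC1 and KAT2B, which were up-regulated, and EHMT1 and HDAC7, which were down-regulated. GC boxes on either strand are in capitals.
HDAC1 (chr1:32291833-32292132, plus strand): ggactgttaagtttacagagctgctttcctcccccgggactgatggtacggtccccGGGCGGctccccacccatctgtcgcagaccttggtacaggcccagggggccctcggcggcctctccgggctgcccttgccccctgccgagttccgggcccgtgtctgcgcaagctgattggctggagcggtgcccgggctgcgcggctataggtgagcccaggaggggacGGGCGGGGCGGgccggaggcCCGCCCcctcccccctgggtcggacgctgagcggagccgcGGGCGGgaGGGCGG
KAT2B (chr3:20040196-20040495, plus strand): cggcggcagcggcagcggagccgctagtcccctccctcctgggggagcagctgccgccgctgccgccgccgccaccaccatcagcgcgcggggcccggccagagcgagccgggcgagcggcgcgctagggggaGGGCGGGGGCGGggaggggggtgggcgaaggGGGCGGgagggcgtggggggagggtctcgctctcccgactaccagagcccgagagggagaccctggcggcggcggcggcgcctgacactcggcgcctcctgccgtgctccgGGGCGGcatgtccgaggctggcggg
EHMT1 (chr9:137618755-137619054, plus strand): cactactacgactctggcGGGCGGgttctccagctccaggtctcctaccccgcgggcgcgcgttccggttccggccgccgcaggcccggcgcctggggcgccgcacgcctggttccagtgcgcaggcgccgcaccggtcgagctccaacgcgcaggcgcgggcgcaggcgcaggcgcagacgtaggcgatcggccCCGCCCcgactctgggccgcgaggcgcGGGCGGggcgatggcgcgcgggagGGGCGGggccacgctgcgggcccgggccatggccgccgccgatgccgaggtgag
HDAC7 (chr12:47819854-47820153, minus strand): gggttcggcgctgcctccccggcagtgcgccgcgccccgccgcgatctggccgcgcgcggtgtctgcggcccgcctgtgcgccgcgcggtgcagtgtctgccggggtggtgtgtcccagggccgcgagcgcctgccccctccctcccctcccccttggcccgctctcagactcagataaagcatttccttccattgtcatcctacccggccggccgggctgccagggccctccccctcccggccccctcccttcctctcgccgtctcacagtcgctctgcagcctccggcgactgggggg
The window of HDAC1 held 6 boxes, some overlapping, those of KAT2B and EHMT1 held 4 each, and that of HDAC7 held 0, although 74.7% of its bases were C or G. A match of letters is not a bound site, and the absence of this motif from a window says only that. Of the 41 genes, 38 were found in the promoter table, 14 of them with several starts, and 26 of the 38 (68.4%) had a box in at least 1 window, compared with 48.3% of all 27305 genes in that table. The share was 7 of 9 among the genes down-regulated at 80 nM, 3 of 3 among those up-regulated and 16 of 26 among those not called there, so boxes were present in most genes of each kind. A gene with several starts has more windows that can hold a box, and 5 of the 9 down-regulated genes had several, against 8 of the 26. By window, the shares were 52.0% for down-regulated genes, 100.0% for up-regulated ones and 61.1% for those not called. Over all windows of the members the share was 60.6%, against 45.0% of all windows in the table. The median C+G content was 68.5% over the windows of these genes and 58.7% over all 35116 windows in the table.

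At 8 nM DIG-MSK, 2 of the 41 genes were up-regulated (EZH1 and SIRT4) and 3 down-regulated (HDAC4, UHRF1 and EHMT1), 12.2% of the genes, where 7.09% of all genes tested were called, 4.25% up-regulated and 2.84% down-regulated. All but SIRT4 also passed an adjusted p of 0.05, as 5.13% of all genes tested did with the fold limit. At 80 nM, 3 genes were up-regulated (HDAC1, HDAC6 and KAT2B) and 9 down-regulated (HDAC4, HDAC7, HDAC9, KAT6B, CREBBP, DNMT3A, DNMT3B, EHMT1 and KMT2A), 29.3% of the genes, where 35.1% of all genes tested were called. All 12 passed the adjusted threshold, as 34.3% of all genes tested did with the fold limit. The down-regulated genes were 22% of the 41, against 16.3% of all genes tested, and the up-regulated ones 7.32%, against 18.8%. HDAC4 and EHMT1 were down-regulated at both concentrations, and 26 genes were called at neither. The share of all genes tested with the same pair of calls was not counted, so these counts are a description only. The 2 comparisons share the untreated arrays.

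**Figure D1:**
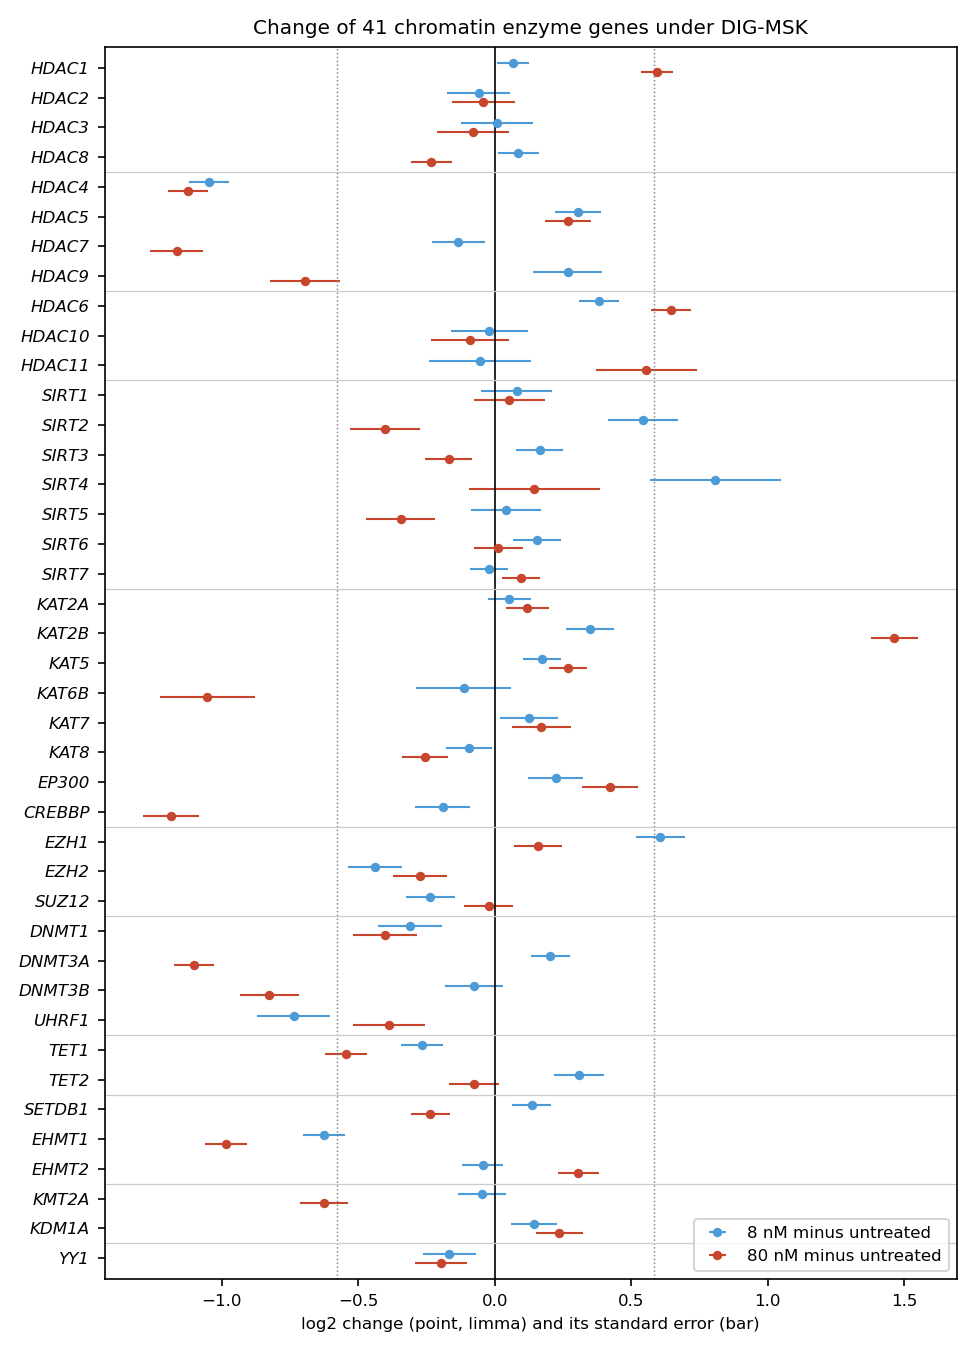
Log2 change (point, limma) and its standard error (bar) of the 41 measured genes at 8 nM (blue) and 80 nM (red) DIG-MSK against untreated cells, 3 arrays per group, in the order of the enzyme classes divided by grey lines; dotted lines mark 0.67-fold and 1.5-fold. Changes at 8 nM ran from -1.05 (HDAC4) to 0.81 (SIRT4) and at 80 nM from -1.19 (CREBBP) to 1.46 (KAT2B).

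The median change of the 41 genes was 0.04 at 8 nM and -0.09 at 80 nM, compared with -0.06 and 0.08 over all genes tested. With no fold limit, 5 genes were higher and 4 lower at 8 nM by adjusted p, where 13.6% of all genes tested passed (7.91% higher and 5.72% lower; a fit to these 6 arrays, blocked on replicate number, left 0 higher and 2 lower, HDAC4 and EHMT1), and 9 were higher and 18 lower at 80 nM, where 59.0% of all genes passed (33.3% higher and 25.7% lower). The 3 treated arrays lay apart from the 3 untreated arrays for 20 genes at 8 nM (background 34.2% of genes) and for 32 genes at 80 nM (background 72.0%). The down-regulated share of the calls at 80 nM, 75%, depended on how arrays were scaled. It was 75% with scaling to the array median, 81.8% with quantile normalization and 72.7% with the authors' log2 values. With scaling to the spike-in controls, RNAs added to the labeling reactions, 1 gene was up-regulated and 14 were down-regulated at 80 nM. The down-regulated share of the calls was then 93.3% in place of 75%, and the share over all genes was 72% in place of 46.5%. At 8 nM the same scaling gave 3 up-regulated and 2 down-regulated genes, a down-regulated share of 40% in place of 60%, with 21.3% in place of 40.1% over all genes. The members past the adjusted threshold at 8 nM all lost it with this scaling. At 80 nM that scaling took the median over all genes from 0.08 to -0.20.

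The class I deacetylases HDAC1, HDAC2, HDAC3 and HDAC8 are nuclear enzymes, of which HDAC1 and HDAC2 form the catalytic core of the Sin3, NuRD and CoREST co-repressor complexes. HDAC1 (NM_004964) had levels of 4.69, 4.69 and 4.64 in untreated cells, 4.73, 4.77 and 4.72 at 8 nM, and 5.26, 5.28 and 5.27 at 80 nM. Its 80 nM arrays lay above all others, and the change of 0.60 (SE 0.06, adjusted p = 5.8e-05, limma), 1.51-fold, was close to the fold limit. Scaled to the spike-in controls, the change was 0.32 and did not pass (adjusted p = 0.30). HDAC2 and HDAC3 had changes between -0.08 and 0.01 at both concentrations (adjusted p from 0.63 to 0.97). The probes of HDAC8 disagreed at 80 nM: the probe used gave -0.23 (adjusted p = 0.028), a probe for NM_001166419 gave -1.13 (adjusted p = 7.1e-05) and a probe for NM_001166422 gave 0.31 (adjusted p = 0.015).

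The class IIa deacetylases HDAC4, HDAC5, HDAC7 and HDAC9 shuttle between nucleus and cytoplasm and bind MEF2 factors. Of these 4 genes, 3 were down-regulated at 80 nM, where 16.3% of all genes tested were. HDAC4 (NM_006037) had levels of -0.89, -0.83 and -0.87 in untreated cells, -1.93, -1.91 and -1.89 at 8 nM, and -1.99, -1.87 and -2.10 at 80 nM. All treated arrays lay below the untreated ones, and those of the 2 concentrations overlapped. The change was -1.05 at 8 nM (SE 0.07, adjusted p = 0.00013), or 2.07-fold lower, and -1.12 at 80 nM (adjusted p = 5.9e-06, limma), 2.18-fold lower; the difference between the concentrations, -0.08, had adjusted p = 0.40. A dimmer probe, for the transcript NR_026664, gave -0.24 and 0.23 (adjusted p = 0.21 and 0.13), and the mean of both probes was 0.64 lower at 8 nM and 0.45 lower at 80 nM. With spike-in scaling the 8 nM change of -0.97 had adjusted p = 0.057.

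HDAC7 (NM_015401), by contrast, was lower at 80 nM and had overlapping arrays at 8 nM. Its levels were 0.47, 0.25 and 0.35 in untreated cells, 0.25, 0.38 and 0.05 at 8 nM, and -0.80, -0.79 and -0.82 at 80 nM. The change at 80 nM was -1.17 (SE 0.10, adjusted p = 2.4e-05), a 2.24-fold decrease, and that at 8 nM was -0.13 (adjusted p = 0.38, limma). The direct comparison of 80 nM with 8 nM gave -1.03 (adjusted p = 5.3e-05). HDAC9 (NM_014707) moved the same way, from -3.19, -3.10 and -3.15 in untreated cells and -2.77, -3.20 and -2.68 at 8 nM to -3.88, -3.81 and -3.84 at 80 nM. Its 80 nM arrays lay below all others, with a change of -0.70 (SE 0.13, adjusted p = 0.0018), which was -0.37 and under the fold limit after normexp background correction. HDAC5 was higher by 0.31 and 0.27 (adjusted p = 0.047 and 0.024), under the fold limit, and at 8 nM its adjusted p was over 0.05 in 8 of 9 fits that each left out an array.

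HDAC6, a mostly cytoplasmic class IIb enzyme that deacetylates tubulin, was the other deacetylase called up-regulated at 80 nM beside HDAC1. HDAC6 (NM_006044) had levels of 0.99, 0.96 and 1.02 in untreated cells, 1.31, 1.44 and 1.36 at 8 nM, and 1.57, 1.59 and 1.74 at 80 nM, so the 3 groups did not overlap. The change was 0.38 at 8 nM (SE 0.07) and 0.64 at 80 nM, 1.56-fold, with adjusted p = 0.013 and 0.00013 (limma), and the arrays at 80 nM were higher than those at 8 nM by 0.26 (adjusted p = 0.015). A dimmer probe of the gene gave -0.06 and -0.21 (adjusted p = 0.78 and 0.16), the mean of the probes changed by 0.22 at 80 nM, and spike-in scaling gave 0.36 (adjusted p = 0.22). HDAC10 had changes of -0.02 and -0.09. HDAC11, the single class IV enzyme, had a change of 0.55 at 80 nM (adjusted p = 0.032), just under the fold limit, and its other probes gave -0.05 and 0.12.

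Sirtuins are NAD-dependent deacylases, found in the nucleus, the cytoplasm and the mitochondria. None of the 7 was called at 80 nM against untreated cells, where 35.1% of all genes tested were. At 8 nM, where 7.09% of all genes were called, 1 of the 7 was, SIRT4, a mitochondrial member. SIRT4 (NM_012240) had levels of -2.80, -3.14 and -3.26 in untreated cells, -2.32, -2.10 and -2.35 at 8 nM, and -3.07, -2.35 and -3.35 at 80 nM. The 8 nM arrays lay above the untreated ones, with a change of 0.81 (SE 0.24), but adjusted p was 0.061 (limma), and 1 array at 80 nM lay with the 8 nM arrays. SIRT2 (NM_012237), which acts mainly in the cytoplasm, had levels of -1.06, -1.01 and -0.78 in untreated cells, -0.42, -0.53 and -0.27 at 8 nM, and -1.50, -1.43 and -1.12 at 80 nM. These groups did not overlap, but the order did not follow the dose: 8 nM arrays were highest and 80 nM arrays lowest, with changes of 0.54 and -0.40 (adjusted p = 0.026 and 0.025), both under the fold limit. The difference between the concentrations was -0.95 (SE 0.13, adjusted p = 0.00037, limma), 1.92-fold.

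SIRT5 was not called with the probe used, but its probes differed. The 4 probes of SIRT5 split at 80 nM, with -0.34 and -0.33 for those of NM_012241 and 0.26 and 0.76 for those of NM_031244 (adjusted p = 0.045, 0.0047, 0.023 and 0.0011). SIRT7 (NM_016538) had levels of 0.71, 0.82 and 0.81 in untreated cells, 0.79, 0.80 and 0.68 at 8 nM, and 0.87, 0.83 and 0.93 at 80 nM, with changes of -0.02 and 0.10 (adjusted p = 0.86 and 0.26). The 80 nM arrays of SIRT7 lay just above the others. SIRT1, SIRT3 and SIRT6 had changes between -0.17 and 0.16, none past the adjusted threshold.

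**Figure D2:**
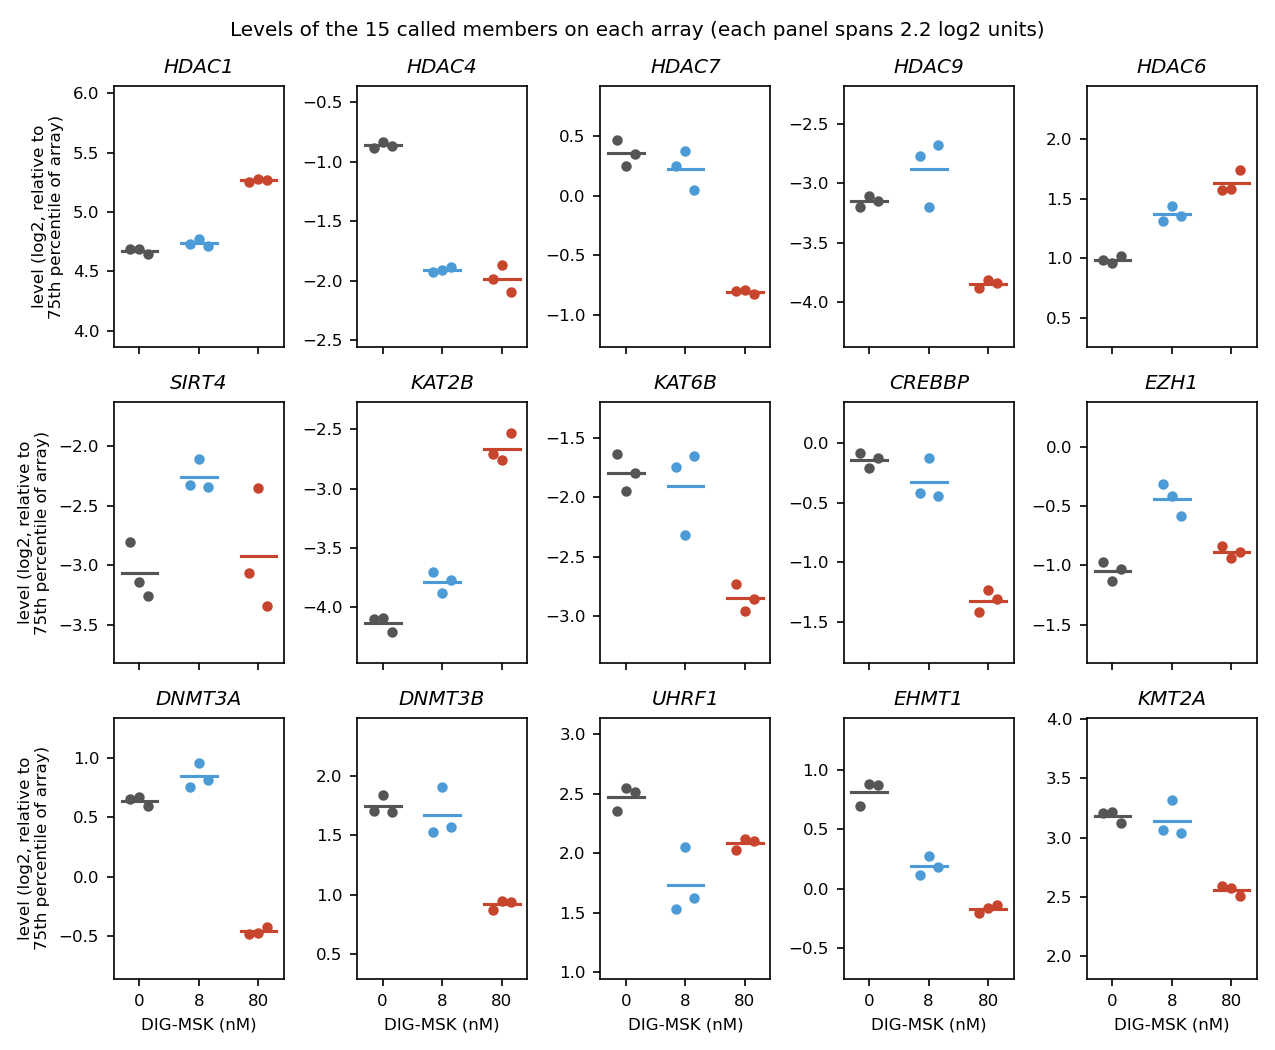
Level of the 15 genes called against untreated cells at either concentration, on each array (points) with the group mean (line), at 0, 8 and 80 nM DIG-MSK; the vertical axis is log2 relative to the 75th percentile of the array, has the same span in each panel, and is placed differently in each. HDAC4 was as low at 8 nM as at 80 nM, whereas HDAC7, CREBBP, DNMT3A and DNMT3B had their 80 nM arrays below all others.

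Of the 8 acetyltransferase genes measured, 1 was up-regulated and 2 were down-regulated at 80 nM. The share called, 37.5%, was near the 35.1% of all genes tested. KAT2B (also known as PCAF, NM_003884) had levels of -4.09, -4.09 and -4.21 in untreated cells, -3.70, -3.88 and -3.77 at 8 nM, and -2.71, -2.76 and -2.53 at 80 nM. The groups did not overlap. The change was 0.35 at 8 nM (SE 0.09) and 1.46 at 80 nM, a 2.76-fold increase, with adjusted p = 0.033 and 3.4e-06 (limma). The change at 80 nM was 0.89 with normexp background correction and 1.18 with spike-in scaling (adjusted p = 0.0024). The change at 8 nM was 0.17 with normexp (adjusted p = 0.23), and its adjusted p was over 0.05 with the replicate block and in 6 of 9 fits that left out an array. KAT2A, its close relative in the SAGA complex, had changes of 0.05 and 0.12 (adjusted p = 0.67 and 0.23).

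CREBBP and EP300 are the paired co-activators CBP and p300. CREBBP (NM_004380) had levels of -0.08, -0.21 and -0.12 in untreated cells, -0.42, -0.12 and -0.45 at 8 nM, and -1.42, -1.24 and -1.31 at 80 nM. It fell by 1.19 on the log2 scale at 80 nM (SE 0.10, adjusted p = 2.8e-05), 2.27-fold, and the change at 8 nM was -0.19 (adjusted p = 0.24, limma). EP300 was higher at 80 nM by 0.42 (adjusted p = 0.0077), under the fold limit, and by 0.14 with spike-in scaling (adjusted p = 0.72). The difference between the changes of CREBBP and EP300 was not tested.

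KAT6B (NM_012330), a MYST family enzyme that acetylates H3, had levels of -1.64, -1.95 and -1.80 in untreated cells, -1.75, -2.32 and -1.65 at 8 nM, and -2.73, -2.96 and -2.86 at 80 nM. Its 80 nM arrays lay below all others, with a change of -1.05 (SE 0.17, adjusted p = 0.0010, limma), 2.08-fold, while that at 8 nM was -0.11 (adjusted p = 0.68). A second probe was well above background on the 3 untreated arrays and on none of the 6 treated ones, so it passed the filter through the untreated group alone and gives no second measure of the change. The other MYST enzymes, KAT5, KAT7 and KAT8, had changes between -0.26 and 0.27 at 80 nM, of which those of KAT5 (0.27, adjusted p = 0.010) and KAT8 (-0.26, adjusted p = 0.028) passed without the fold limit.

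In Polycomb repressive complex 2, EZH1 and EZH2 are alternative catalytic subunits that methylate H3K27, and SUZ12 is a core subunit. EZH1 (NM_001991) had levels of -0.97, -1.13 and -1.03 in untreated cells, -0.31, -0.42 and -0.59 at 8 nM, and -0.83, -0.94 and -0.88 at 80 nM. Its 8 nM arrays were the highest, with a change of 0.61 (SE 0.09, adjusted p = 0.0038), 1.52-fold, the change at 80 nM was 0.16 (adjusted p = 0.15, limma), and the 80 nM level lay 0.45 below that at 8 nM (adjusted p = 0.0028). With the replicate number as a block in a fit to the untreated and 8 nM arrays, the 8 nM change had adjusted p = 0.054. With spike-in scaling the 8 nM change of 0.68 had adjusted p = 0.19 (limma). EZH2 (NM_004456) was lower, with levels of 2.13, 2.04 and 2.09 in untreated cells, 1.56, 1.87 and 1.52 at 8 nM, and 1.76, 1.82 and 1.86 at 80 nM. Its changes of -0.44 (adjusted p = 0.023) and -0.27 (adjusted p = 0.042, limma) were under the fold limit and their adjusted p-values were over 0.05 in 5 and 6 of 9 fits that left out an array. SUZ12 had changes of -0.24 and -0.02 (adjusted p = 0.12 and 0.85).

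All 4 genes of DNA methylation were lower at 80 nM by adjusted p, where 25.7% of all genes tested were. Past the fold limit were 2 of them, the de novo methyltransferases, where 16.3% of all genes tested were down-regulated. DNMT3A (NM_175629) had levels of 0.66, 0.67 and 0.59 in untreated cells, 0.76, 0.96 and 0.81 at 8 nM, and -0.48, -0.47 and -0.43 at 80 nM. The 8 nM arrays lay slightly above the untreated ones (change 0.20, adjusted p = 0.10) and the 80 nM arrays well below, with a change of -1.10 (SE 0.07, adjusted p = 6.4e-06, limma), 2.14-fold. A second probe for the same transcript gave -0.53 and -2.72 (adjusted p = 0.027 and 8.5e-07), the opposite sign at 8 nM, and the mean of the probes was -0.16 at 8 nM (adjusted p = 0.23). A probe for the transcript NM_175630 gave -0.14 at 80 nM (adjusted p = 0.36). DNMT3B (NM_175850) had levels of 1.71, 1.84 and 1.70 in untreated cells, 1.53, 1.91 and 1.57 at 8 nM, and 0.87, 0.95 and 0.94 at 80 nM. It fell by 0.82 at 80 nM (SE 0.11, adjusted p = 0.00028, limma), 1.77-fold, with a change of -0.08 at 8 nM.

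UHRF1, which brings DNMT1 to newly copied DNA, was the member of this class called at 8 nM. UHRF1 (NM_013282) had levels of 2.35, 2.55 and 2.51 in untreated cells, 1.53, 2.05 and 1.62 at 8 nM, and 2.02, 2.12 and 2.10 at 80 nM. All treated arrays lay below the untreated ones, with changes of -0.74 at 8 nM (SE 0.13, adjusted p = 0.0099), 1.67-fold, and -0.39 at 80 nM (adjusted p = 0.035, limma). The block fit of the untreated and 8 nM arrays gave adjusted p = 0.051 for the former. With spike-in scaling the 8 nM change of -0.66 had adjusted p = 0.20 (limma). A dimmer probe gave larger changes, -1.17 and -1.30 (adjusted p = 0.0054 and 0.00042). DNMT1 had changes of -0.31 and -0.40 (adjusted p = 0.12 and 0.018). At 80 nM the adjusted p was over 0.05 in 5 of 9 fits that left out an array for UHRF1, and in 2 of 9 for DNMT1.

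Of the TET enzymes, TET1 (NM_030625) had levels of 3.28, 3.33 and 3.35 in untreated cells, 2.97, 3.19 and 3.01 at 8 nM, and 2.75, 2.82 and 2.76 at 80 nM. The 3 groups did not overlap and the levels went down with dose, by 0.27 at 8 nM (adjusted p = 0.052) and by 0.55 at 80 nM (SE 0.08, adjusted p = 0.00041, limma), which is under the fold limit; a second probe gave -0.77 at 80 nM (adjusted p = 0.0039). TET2 had changes of 0.31 and -0.08 (adjusted p = 0.062 and 0.51). Its probe with the next highest mean, for the same transcript, gave -1.06 at 80 nM (adjusted p = 0.011), and that probe stood for the gene under some alternatives, so the size of its change at 80 nM depended on the probe chosen.

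EHMT1 (GLP) and EHMT2 (G9a) form a heterodimer that methylates H3K9 in euchromatin, and SETDB1 methylates H3K9 at silenced repeats. EHMT1 (NM_024757) had levels of 0.69, 0.88 and 0.87 in untreated cells, 0.11, 0.27 and 0.18 at 8 nM, and -0.20, -0.17 and -0.14 at 80 nM. The 3 groups did not overlap and followed the dose, with changes of -0.63 at 8 nM (SE 0.08, adjusted p = 0.0020), 1.54-fold, and -0.98 at 80 nM (adjusted p = 1.8e-05, limma), 1.98-fold, and a difference of -0.36 between the concentrations (adjusted p = 0.0047). A second probe gave -0.87 and -1.05 (adjusted p = 0.0050 and 0.00025), and the probe for NM_001145527 gave -0.71 and -0.54, neither past the threshold. With spike-in scaling the 8 nM change of -0.55 had adjusted p = 0.42. EHMT2 was higher by 0.30 at 80 nM (adjusted p = 0.0081), under the fold limit, and by 0.03 with spike-in scaling. For SETDB1 the probe used gave -0.24 and a dimmer probe 0.36 at 80 nM (adjusted p = 0.021 and 0.0046).

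KMT2A (MLL1), an H3K4 methyltransferase, was down-regulated at 80 nM. KMT2A (NM_005933) had levels of 3.21, 3.22 and 3.13 in untreated cells, 3.06, 3.31 and 3.04 at 8 nM, and 2.60, 2.57 and 2.50 at 80 nM. Its 80 nM arrays lay below all others, with a change of -0.63 (SE 0.09, adjusted p = 0.00043), 1.54-fold, and that at 8 nM was -0.05 (adjusted p = 0.75, limma). With the authors' log2 values the change at 80 nM was -0.55, under the fold limit. At 80 nM the other probes of KMT2A gave -0.13 (adjusted p = 0.27), -1.42 (adjusted p = 0.0068) and -1.79 (adjusted p = 0.0038). The last of these probes was well above background on 2 of the 3 arrays at 80 nM. KDM1A (LSD1), which removes H3K4 methylation within the CoREST complex, was higher by 0.24 at 80 nM (adjusted p = 0.041), and -0.04 with spike-in scaling, and its adjusted p was over 0.05 in 7 of 9 fits that left out an array. YY1 (NM_003403), a zinc finger factor that can recruit these enzymes, had levels of 2.58, 2.79 and 2.65 in untreated cells, 2.38, 2.69 and 2.46 at 8 nM, and 2.46, 2.47 and 2.50 at 80 nM, with changes of -0.17 and -0.20 (adjusted p = 0.28 and 0.11). The 80 nM arrays of YY1 lay just below the untreated ones.

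In the direct comparison of 80 nM with 8 nM, 2 genes were higher at 80 nM (KAT2B and HDAC11) and 9 were lower (HDAC7, HDAC9, SIRT2, SIRT4, KAT6B, CREBBP, DNMT3A, DNMT3B and KMT2A), 26.8% of the 41 genes, where 33.6% of all genes tested were called, 19.5% higher and 14.2% lower. The largest difference down was that of DNMT3A, -1.30 (SE 0.07, adjusted p = 2.5e-06, limma), and the largest up that of KAT2B, 1.12 (adjusted p = 1.7e-05). KMT2A, at -0.58, lay at the fold limit. SIRT4 (-0.66, adjusted p = 0.043) had an adjusted p over 0.05 in 7 of 9 fits that left out an array. HDAC11 (0.61, adjusted p = 0.022) was at 0.24 with the mean of its probes (adjusted p = 0.11), its other probes gave 0.09 and 0.01, and it was 0.39 without 80 nM replicate 2. HDAC4 was not called, since it was as low at 8 nM as at 80 nM. These values also carry the difference between the slides.

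Several genes had probes for more than 1 part or transcript. Of the 16 genes with several probes past the filter, 3 had probes that passed the adjusted threshold in opposite directions at 80 nM (HDAC8, SIRT5 and SETDB1), and 0 had such probes at 8 nM. The probes of a gene lay more than 1 log2 unit apart for 6 of the 16 at 80 nM and for 1 at 8 nM, KAT6B, whose second probe was not well above background on treated arrays. More than 1 probe was lower at 80 nM by adjusted p for DNMT3A, UHRF1, TET1, EHMT1 and KMT2A, and also for HDAC8 and SIRT5 beside their opposite probes, while for HDAC4 and HDAC6 the call rested on the brighter of 2 probes.

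**Figure D3:**
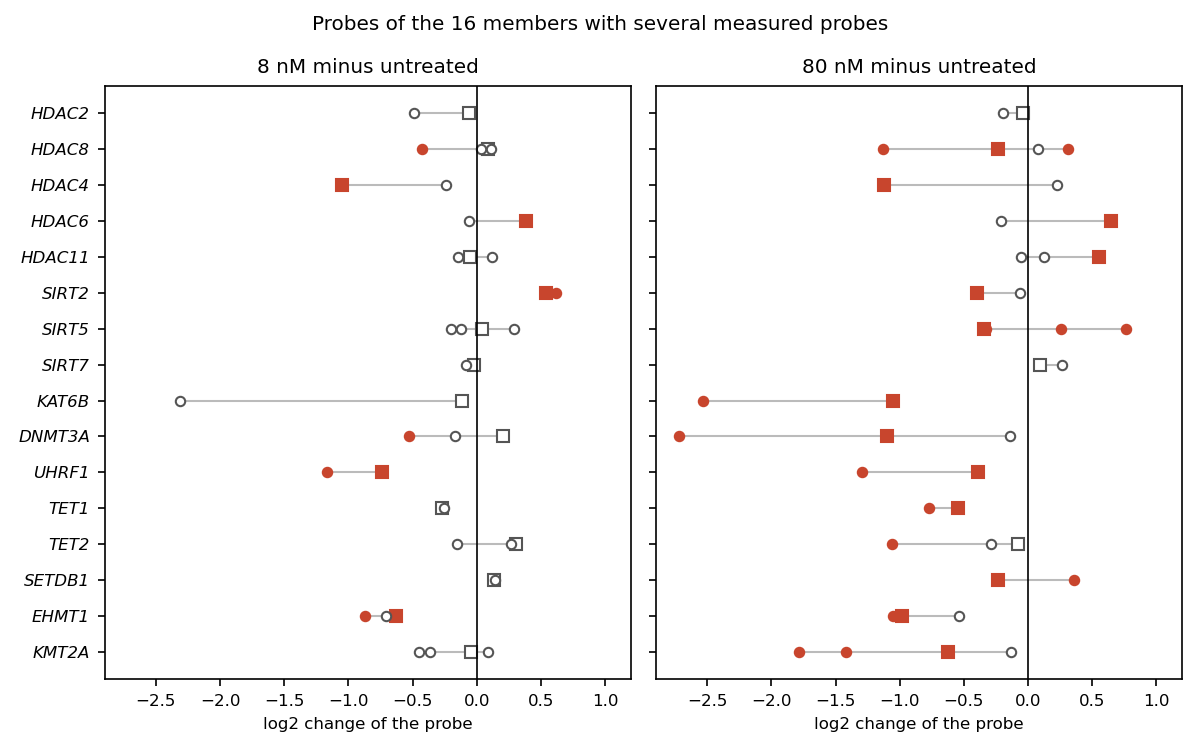
Log2 change of every probe past the filter for the 16 genes with several probes, at 8 nM (left) and 80 nM (right) DIG-MSK against untreated cells; squares are the probe used for the gene, circles the others, and filled symbols have a limma adjusted p under 0.05. At 80 nM the probes of DNMT3A lay between -2.72 and -0.14, while those of HDAC8, SIRT5 and SETDB1 had filled symbols on both sides of 0, and the second probe of KAT6B was not well above background on treated arrays.

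The partners of these enzymes were described from 6 lists that hold 149 other genes, 141 of them tested. At 8 nM the rule called 0 of them up-regulated and 4 down-regulated, 2.84% of the 141 against 7.09% of all genes tested. By adjusted p with no fold limit, 9 of the 141 were higher and 23 lower, where 7.91% and 5.72% of all genes tested were. At 80 nM, 9 were up-regulated and 34 down-regulated, 30.5% against 35.1%. By direction these were 6.38% and 24.1%, against 18.8% and 16.3% of all genes tested. Their median change at 80 nM was -0.16, against 0.08 over all genes. With spike-in scaling, where 72% of the calls over all genes tested were down-regulated, the counts at 80 nM were 2 and 57.

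Of the other histone demethylases, 10 of 20 were down-regulated at 80 nM and 1 up-regulated, where 16.3% of all genes tested were down-regulated and 18.8% up-regulated. This list, like the others, was chosen with earlier results of these data known, so the shares are a description and not a test. The 10 were KDM2A, KDM2B, JMJD1C, KDM4A, KDM4B, KDM4C, KDM5B, KDM6A, KDM6B and PHF8. KDM4B (NM_015015), an H3K9 demethylase, had levels of 2.73, 2.72 and 2.61 in untreated cells, 1.93, 1.97 and 1.81 at 8 nM, and 0.64, 0.67 and 0.65 at 80 nM. The groups did not overlap and followed the dose, with changes of -0.78 and -2.03 (SE 0.07, adjusted p = 0.00043 and 1.8e-07, limma), the latter a 4.09-fold decrease, and a second probe gave -1.24 and -2.74. KDM6A (UTX), which removes H3K27 methylation, fell by 1.32 and KDM2A by 1.31 at 80 nM (adjusted p = 2e-05 and 3.2e-05, limma). KDM1B, the relative of KDM1A, was up-regulated by 0.73 (adjusted p = 0.0097), but a second probe gave 0.25 (adjusted p = 0.80). Across the alternatives, leaving out each array included, between 9 and 10 demethylase genes were down-regulated.

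Among the other histone methyltransferases and their partners, 8 of 28 (28.6%) were down-regulated at 80 nM and 0 up-regulated. Of all genes tested, 16.3% were down-regulated and 18.8% up-regulated. By adjusted p with no fold limit, 5 were higher and 14 lower, where 33.3% and 25.7% of all genes tested were. The largest decreases were those of ASH1L (-1.49), RBBP5 (-1.39), a core subunit of the MLL complexes, and NSD1 (-1.37), with adjusted p = 5.5e-05, 0.00030 and 3e-06 (limma), and the others were SETD1A, DOT1L, KMT5C, KMT2C and KMT2D, the last 2 relatives of KMT2A. With spike-in scaling, where 72% of the calls over all genes tested were down-regulated, 12 were down-regulated.

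Of the subunits of HDAC co-repressor complexes, 6 of 27 were down-regulated and 2 up-regulated at 80 nM. These were 22.2% and 7.41%, against 16.3% and 18.8% of all genes tested. With spike-in scaling the counts were 16 and 1, where 72% of the calls over all genes were down-regulated. TBL1X, TBL1XR1 and NCOR1, subunits of a complex that recruits HDAC3, had changes of -1.49, -1.39 and -1.19 at 80 nM (adjusted p = 6.3e-05, 4.6e-05 and 1.1e-05), although a second probe of TBL1XR1 gave 0.77 (adjusted p = 0.0017), and the other probes of TBL1X gave -0.43 and -0.34, under the fold limit. TBL1XR1 was also called at 8 nM (-0.58, adjusted p = 0.023, limma), at the fold limit. Its second probe gave -0.20 there (adjusted p = 0.36). With spike-in scaling the adjusted p of that call was 0.61, and it was over 0.05 in 3 of 9 fits that left out an array. SAP18, a subunit of the Sin3 complex, rose by 1.02 (adjusted p = 1.5e-05). The methyl-DNA reader MBD2 was up-regulated by 0.60 with the probe used, whereas a probe for the transcript NM_015832 gave -4.65 (adjusted p = 8.1e-09).

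Polycomb partners were split at 80 nM, with 5 of 25 down-regulated and 4 up-regulated. These shares, 20% and 16%, were near those of all genes tested, 16.3% and 18.8%. JARID2 and MTF2, accessory subunits of Polycomb repressive complex 2, fell by 1.41 and 0.91 (adjusted p = 2.3e-06 and 5.2e-05, limma), and ASXL2 by 0.74. PHC1 and CBX7, subunits of Polycomb repressive complex 1, were higher by 0.87 and 0.86 (adjusted p = 0.00059 and 1.1e-05), but 1 gene of this list was up-regulated with spike-in scaling and 2 with the mean of a gene's probes. A second probe of CBX7 gave 0.15 (adjusted p = 0.31). PHF19 was down-regulated at 8 nM (-0.67, adjusted p = 0.0023), or with the replicate block adjusted p = 0.061, and a second probe of it gave -0.34 there and 0.23 at 80 nM, where the probe used gave -0.60.

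Subunits of acetyltransferase complexes changed in 4 of 26 cases at 80 nM, 2 down-regulated (KANSL1, -0.93, and EPC1, -0.80) and 2 up-regulated (BRPF3, 0.65, and MSL1, 0.62), the last with a second probe at -0.61. The share called was 15.4%, against 35.1% of all genes tested. With spike-in scaling, where 72% of the calls over all genes tested were down-regulated, 5 were down-regulated and 0 up-regulated. Of the readers and partners of DNA methylation, 3 of 15 (20%) were down-regulated at 80 nM and 0 up-regulated, against 16.3% and 18.8% of all genes tested. By adjusted p with no fold limit 3 were higher and 7 lower, where 33.3% and 25.7% of all genes tested were. The down-regulated genes included ZBTB4 (-0.90, adjusted p = 7.2e-05, limma), which binds methylated DNA. Another was HELLS (-0.69, adjusted p = 0.0014, limma), a chromatin remodeler needed for DNA methylation. With spike-in scaling 6 genes of this list were down-regulated, beside the same 72% over all calls. At 8 nM these 2 lists held 0 called genes, where 7.09% of all genes tested were called.

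**Figure D4:**
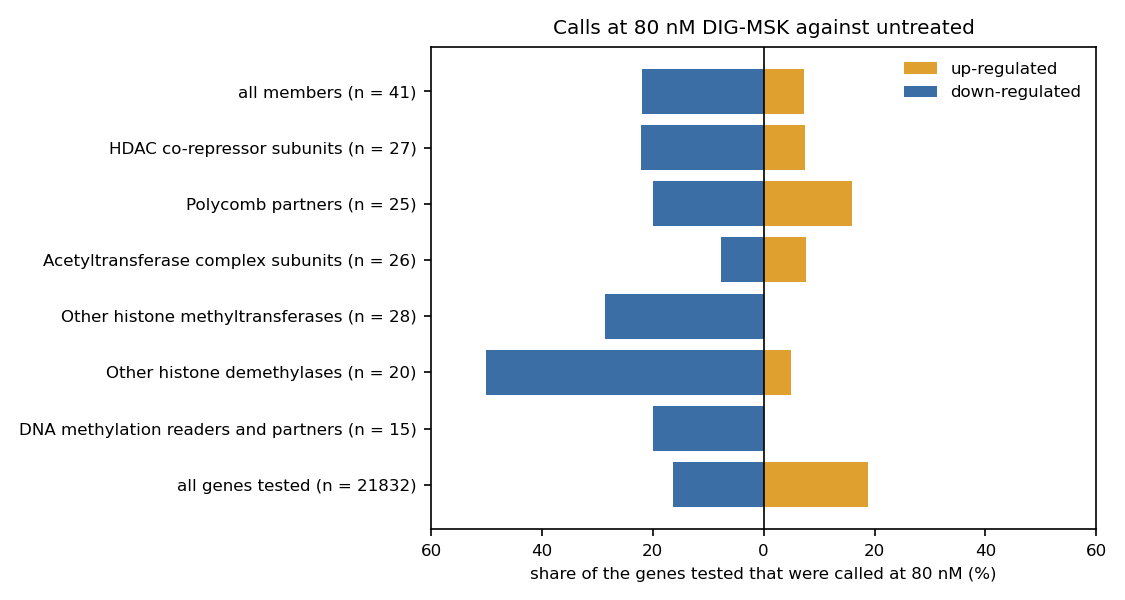
Share of the genes tested in each list that was called up-regulated (orange, right) or down-regulated (blue, left) at 80 nM DIG-MSK against untreated cells, in percent, with the number tested in brackets; the bottom bar holds all 21832 genes. The other histone demethylases had 50% down-regulated and 5% up-regulated, while all genes tested had 16.3% and 18.8%. The lists were chosen with earlier results of these data known.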

How the data were processed

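RNA of the 9 cultures was hybridized to Agilent arrays of a single colour. The authors scanned them and extracted each spot with Feature Extraction 10.7.3.1, per the file headers, and their deposited processed intensity has the background removed, with no scaling across arrays. The paper names a lowess step, which has no second channel here, and the Low Input Quick Amp kit, while the labels name another labeling kit. A deposited table of log2 values by the authors, not centred on genes, has the same quantiles in every column (medians from 6.602 to 6.609) and follows the log2 median spot signal of each array (Pearson's r of 0.999 or more after rounding, across spots); its steps are not given in the sources used here, and it served as an alternative only.

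From log2 processed intensity, each array's 75th percentile over gene probes was subtracted. Control and outlier spots were left out, and spots of a probe were averaged. A probe was kept if 1 group or more had it well above background on its 3 arrays, and the probe with the highest mean over 9 arrays stood for a gene. The 75th percentile lay between 831.7 and 1170, no gene spot was saturated, and 3 arrays per group limit the precision. Groups, taken from the labels, were compared in R 4.3.3 with limma 3.58.1 (lmFit, eBayes) on all 9 arrays; every adjusted p is limma's, by Benjamini-Hochberg over the 21832 genes tested. Adjusted p-values of a gene's further probes come from a fit to all 26457 probes kept. The fit was tested on simulated data.

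Same-numbered untreated and 8 nM arrays deviated together weakly (correlations of 0.114, 0.101 and 0.163 across genes). On that ground the numbers were used as a block, from the data and not from the labels. Same-numbered arrays of untreated and 80 nM did not deviate together (-0.009, -0.082 and -0.003), nor did those of 8 and 80 nM (0.016, -0.124 and -0.038). Similar values also occurred between differently numbered arrays. They were 0.118 for 8 nM replicate 1 with 80 nM replicate 2, and 0.125 for 8 nM replicate 2 with 80 nM replicate 3. A pairing is therefore not established. The members and lists were chosen with earlier results of these data known. Values on every array are given for genes called with an adjusted p under 0.05 and, in classes without one, for the member with the brightest probe; those of SIRT2, SIRT4, EZH2 and KDM4B, and the members of lists named beyond the 3 that rose or fell most, were picked with their values known. A few genes of the lists are counted but not reported here by name. The alternatives tried were normexp (offset 50) applied to median spot signals, since no mean spot signal, as planned, was in the files, quantile normalization, scaling to the median or to 10 spike-in probes, the authors' log2 values, other filters on dim probes, the mean of a gene's probes, only the groups compared, the replicate block, calls by adjusted p, and omission of single arrays.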

Additional observations from a re-analysis of the deposited data

Results flagged for a closer look

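SIRT2 moved in opposite directions at the 2 concentrations. Against untreated cells its changes at 8 and 80 nM were 0.54 and -0.40 (adjusted p = 0.026 and 0.025, limma), and the test of the difference gave -0.945 (SE 0.13, adjusted p = 0.00037). The difference kept its sign and stayed past the adjusted threshold under all alternatives run for it, between -1.30 and -0.81, and between -1.06 and -0.87 when single arrays were omitted. The single changes did not: that at 8 nM lost the threshold in 4 of 9 fits with an array left out and that at 80 nM in 3. A second probe, for the transcript NM_001193286, gave 0.62 and -0.06 at these concentrations (adjusted p = 0.016 and 0.70). The 80 nM arrays lay on a slide of their own, so the difference cannot be told apart from one between the slides.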

How the results depend on the processing

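Of the 2460 values of single genes recomputed over all alternatives, 2231 kept their side of the adjusted threshold, 184 lost it, 37 gained it and 8 that passed it in either setting changed sign. The sign also turned for 71 values past the threshold in neither. With spike-in scaling the sign changed at 80 nM against untreated for HDAC5 (-0.0128), KAT5 (-0.0106) and KDM1A (-0.0425), and at 80 nM against 8 nM for EHMT2 (-0.0073) and HDAC6 (-0.0940). With the mean of a gene's probes it changed at 80 nM for SETDB1 (0.0599), SIRT5 (0.0881 against untreated and 0.0839 against 8 nM) and, among the partner genes, MBD2 (-2.0208).

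The 2 genes up-regulated at 8 nM became 0 with normexp background correction, 1 with the authors' log2 values, 1 with an adjusted p and the fold limit, and 5 with an adjusted p and no fold limit. The 3 up-regulated at 80 nM became 1 with spike-in scaling and 9 with an adjusted p and no fold limit, and the 9 down-regulated became 14 and 18. Of the 2 higher and 9 lower at 80 nM than at 8 nM, 1 and 17 were called with spike-in scaling. With an adjusted p and no fold limit they were 5 and 17. The count of higher genes was 1 with normexp, the authors' values and the mean of probes. It was also 1 with the replicate block in the fit of only the groups compared. Partner genes up-regulated at 8 nM numbered 2 with spike-in scaling, 1 with the mean of probes and 9 with an adjusted p and no fold limit (23 down-regulated); at 80 nM 9 became 2, 5 and 36, and 34 down-regulated became 57 with spike-in scaling and 62 with an adjusted p and no fold limit. The cause was not tested. When single arrays were omitted, 1 to 3 genes were up-regulated and 3 to 3 down-regulated at 8 nM, 2 to 4 and 9 to 10 at 80 nM, and 1 to 2 higher and 7 to 9 lower at 80 nM than at 8 nM; of the partner genes, 0 to 2 and 3 to 8 at 8 nM (7 without untreated replicate 2 and 8 without 8 nM replicate 1), and 9 to 9 and 32 to 37 at 80 nM. Without untreated replicate 2 or 8 nM replicate 1, 1 gene was up-regulated at 8 nM, and without 8 nM replicate 2 or 3 or 80 nM replicate 2, 1 gene was higher at 80 nM than at 8 nM; of the partner genes, 1 was up-regulated at 8 nM without untreated replicate 3 or 8 nM replicate 1 or 3, and 2 without 8 nM replicate 2.

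A fit of only the groups compared held the replicate number as a block. Its counts against untreated cells by the study's rule were as without the block. They were 2 and 3 at 8 nM and 3 and 9 at 80 nM. In that fit the members past the adjusted threshold at 8 nM with no fold limit dropped from 9 to 2 (HDAC4 and EHMT1). With the block and all arrays they numbered 6. Without the block, the fit of only the groups compared lost the threshold for EZH2, HDAC5 and KAT2B. The reason for the drop was not tested.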
